A study of Mus musculus with 12 samples.

Results

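The regenerating islet-derived (REG) lectins were followed in mouse pancreatic acini and in 2 kinds of duct-like organoid. The genes were Reg1, Reg2, Reg3a, Reg3b, Reg3d, Reg3g and Reg4, and their probe sets were taken as those whose single gene symbol in the array's annotation was one of these names. This gave 8 of 45101 probe sets, 2 for Reg3b and 1 for each of the other 6 genes, and 7 of the 18194 genes that had a probe set with a single symbol. All 7 genes passed the filter on low values, as did 14991 genes in all. Reg4 passed through its values in Acini, where it was above the filter on 4 of 4 arrays.

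Total RNA was hybridised to 12 Affymetrix arrays, with 4 biological replicates (A, B, C and D) of each of 3 groups. yDucts were organoids grown from pancreatic acini of R26-rtTA; tetO-YAP S127A mice, in which doxycycline had switched on an activated form of YAP, the transcriptional coactivator of the Hippo pathway; rtTA was driven from the ubiquitous Rosa26 locus. Once formed, such organoids were passaged in the absence of doxycycline. Ducts were organoids grown from fragments of native pancreatic duct, and Acini were exocrine acini taken fresh from the pancreas, which the study prepared from mice aged 6 to 9 weeks. Both organoid groups were kept in Matrigel under the same medium, with B27, N-acetylcysteine, gastrin, EGF, Noggin, FGF10, nicotinamide and R-Spondin1, whereas Acini had not been cultured, so culture and cell type cannot be told apart in any comparison with Acini. The sources used here do not give the genotype of the mice behind the Ducts and Acini arrays, or say whether the replicates of a group came from separate mice or cultures, so that p-values reflect only how far these arrays differed.

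REG proteins are small secreted proteins built around a single C-type lectin domain. In the pancreas they are made mainly by acinar cells and released with the digestive enzymes, and several of them are strongly induced when the gland is inflamed or injured. In the gut, the Reg3 proteins are made by epithelial cells in response to microbes and to interleukin-22, and some of them bind and kill bacteria.

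In mouse, 6 of the 7 genes form a cluster of 98.0 kb on chromosome 6, and Reg4 lies apart on chromosome 3. By RefSeq on GRCm38.p6, the cluster reads Reg3b (78370885 to 78373466, plus strand), Reg3d (78375874 to 78378865, minus strand), Reg3a (78380709 to 78383839, plus strand), Reg2 (78405155 to 78408099, plus strand), Reg1 (78425983 to 78428668, plus strand) and Reg3g (78466269 to 78468874, minus strand). Reg4 spans 98222138 to 98236748 on the plus strand of chromosome 3. The promoters of 4 genes are shown because their levels contrasted in the organoids: Reg1 and Reg3g were higher in yDucts than in Ducts, Reg3b was high in yDucts and uneven among Ducts, and Reg3a was low in both organoid groups. Each sequence is the 250 bases before the RefSeq gene start, 5′ to 3′ on the gene's own strand, and capitals mark matches to TATAAA (the TATA box), CACCTG (an E-box core) and TTCNNNGAA (the palindrome bound by STAT factors), on either strand:
Reg1, chr6:78425733-78425982, plus strand: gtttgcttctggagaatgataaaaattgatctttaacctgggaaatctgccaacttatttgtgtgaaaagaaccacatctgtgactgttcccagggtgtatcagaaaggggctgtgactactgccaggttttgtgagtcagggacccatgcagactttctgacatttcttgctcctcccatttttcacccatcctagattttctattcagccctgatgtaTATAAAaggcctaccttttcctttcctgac
Reg3g, chr6:78468875-78469124, minus strand: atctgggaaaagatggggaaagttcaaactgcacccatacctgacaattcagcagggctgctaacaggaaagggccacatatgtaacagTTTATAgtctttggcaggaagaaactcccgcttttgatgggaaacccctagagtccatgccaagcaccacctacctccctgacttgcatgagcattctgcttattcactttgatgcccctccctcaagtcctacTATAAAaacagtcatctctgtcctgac
Reg3b, chr6:78370635-78370884, plus strand: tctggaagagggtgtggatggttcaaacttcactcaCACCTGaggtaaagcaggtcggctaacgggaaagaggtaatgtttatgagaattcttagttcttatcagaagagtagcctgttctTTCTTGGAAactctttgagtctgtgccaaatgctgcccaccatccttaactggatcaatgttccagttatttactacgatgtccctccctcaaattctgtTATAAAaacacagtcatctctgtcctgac
Reg3a, chr6:78380459-78380708, plus strand: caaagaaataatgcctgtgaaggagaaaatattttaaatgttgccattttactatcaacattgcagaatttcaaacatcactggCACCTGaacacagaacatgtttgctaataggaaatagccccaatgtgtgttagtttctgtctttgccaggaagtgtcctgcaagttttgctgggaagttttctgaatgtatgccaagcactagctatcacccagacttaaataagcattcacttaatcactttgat

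TATAAA matched in 4 of the 7 REG promoters and in 12.4% of 32851 promoters of the same length. It began at -30 in Reg1 and Reg2, at -29 in Reg3b and at -27 in Reg3g, counted from the gene start, and Reg3g held a second match at -161 on the opposite strand. CACCTG matched in 5 of 7, against 17.2% of all promoters, with no match in Reg1 or Reg3g. TTCNNNGAA matched at -129 in Reg3b and at -238 in Reg3d, against 7.02% of all promoters. No match in a window of this length says nothing of the factors that act on a gene. The other motifs searched were TTTCCC (4 of 7, against 21.9% of all promoters), CATTCC (Reg2 alone, 12.6%), TGANTCA (Reg1 alone, 6.75%) and AAGGTCA (0 of 7, 4.08%). In pairwise alignments of the 7 promoters, Reg3b and Reg3g were 68.4% identical, and the other pairs lay between 44.9% and 56.9%.

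All values below are RMA expression levels on the log2 scale, so that a difference of 1 is a 2-fold change. In Acini, Reg1, Reg2 and Reg3b read between 13.87 and 14.46, where the brightest probe set of each Acini array read 14.73 to 14.79, and saturation was not tested. Hybridisation of one REG transcript to the probes of another was not tested either. The level of one probe set was not set against that of another, since probes differ in how brightly they hybridise. Differences are given ± SE from limma, with p adjusted by Benjamini-Hochberg over all 14991 genes tested, and calls were made below an adjusted p of 0.05. A floor was set on each array at its 30th percentile, which averaged 3.20 in yDucts, 3.21 in Ducts and 3.72 in Acini. A fold against a group at or under the floor was taken against the floor and is written as "at least". Genes with such a fold passed the filter only through the brighter group or groups, so that the filter favoured a call in that direction. The 9 acinar marker genes measured averaged 4.23 to 4.36 on the yDucts arrays, 3.65 to 4.02 on the Ducts arrays and 12.51 to 12.65 on the Acini arrays. Judged by group means, as for all marker counts here, 8 of 9 of these genes were above the floor in yDucts and 7 of 9 in Ducts. Cela1, an elastase, averaged 6.30, 5.70 and 14.45 in yDucts, Ducts and Acini. Cpb1, the pancreatic carboxypeptidase B, was under the floor in both organoid groups, and Ptf1a, the transcription factor that defines acinar cells, was under it in Ducts. The 8 ductal markers averaged 9.60 to 10.01 in yDucts, 9.10 to 11.07 in Ducts and 6.11 to 6.45 in Acini. By group means all 8 were above the floor in both organoid groups, but Cftr was under it on Ducts C and D (2.23 and 2.38).

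Islet, stromal and endothelial markers averaged higher in Acini than in either organoid group. Islet markers (9 measured) averaged 3.27 to 3.39 in yDucts, 3.27 to 3.32 in Ducts and 6.49 to 6.80 in Acini, with Gcg, Ppy, Pyy, Iapp and Neurod1 under the floor in both organoid groups. The 8 stromal markers averaged 3.42 to 3.53, 3.37 to 3.57 and 6.93 to 7.56 in yDucts, Ducts and Acini, and the 7 endothelial markers averaged 3.61 to 3.76, 3.60 to 3.85 and 6.29 to 6.81. The 11 leukocyte markers averaged 4.73 to 4.83 in yDucts, 4.32 to 5.04 in Ducts and 5.33 to 5.62 in Acini, with 8, 7 and 8 of 11 above the floor in these groups. Itgam and Coro1a were under the floor in every group, Ptprc, the pan-leukocyte gene, in both organoid groups, Ms4a1 in Ducts and Cd68 in Acini. The myeloid genes Cd14 and Cd68 ran the other way from the rest of the list: Cd14 averaged 12.46 in yDucts, 10.29 in Ducts and 6.83 in Acini, and Cd68 averaged 4.88, 5.02 and 3.61. The Gapdh control probe sets for the 3′ end exceeded those for the 5′ end by 1.29 to 1.91 in Acini, but differed by -0.17 to -0.12 in yDucts and by -0.07 to 0.02 in Ducts. The part of these differences in the REG comparisons with Acini was not tested, and in bulk RNA fewer cells of a type and less RNA per cell cannot be told apart.

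In Acini all 7 REG genes were above the floor on all 4 arrays, and the organoids split them into 2 sets. Reg1, Reg3b and Reg3g read 9.74 or more on every yDucts array. Reg2, Reg3a and Reg3d were 653-fold, 377-fold and 223-fold lower in yDucts than in Acini. In Ducts all 7 were lower than in Acini. The plot of values by array shows every probe set.

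**Figure D1:**
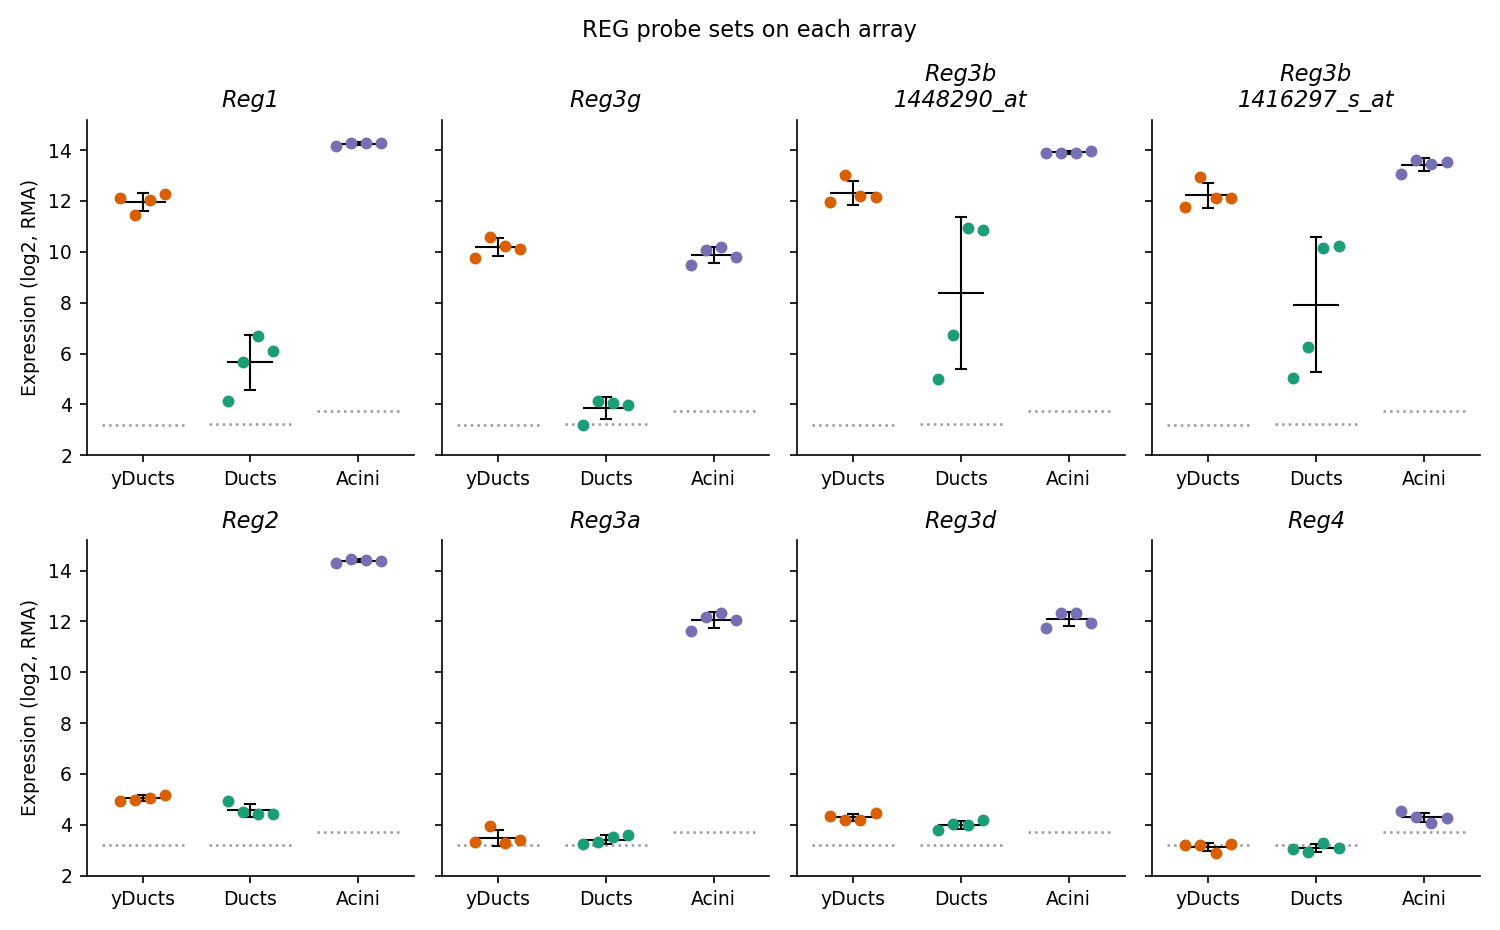
Expression (log2, RMA) of the 8 REG probe sets on each array, in yDucts, Ducts and Acini; points are arrays A to D from left to right, bars are the mean ± SD of 4 arrays and dotted lines are the mean 30th percentile of each group's arrays. Reg1, Reg3g and both Reg3b probe sets lie between 9.74 and 13.02 in yDucts, whereas Reg2, Reg3a, Reg3d and Reg4 lie between 2.91 and 5.19.

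Reg1 encodes lithostathine, a protein of pancreatic juice. Its probe set, 1415905_at, read 12.12, 11.46, 12.04 and 12.28 on yDucts arrays A to D, 4.14, 5.67, 6.69 and 6.11 on the Ducts arrays, and 14.17, 14.28, 14.29 and 14.26 on the Acini arrays. The 3 groups did not overlap, with Acini on top, yDucts in the middle and Ducts lowest. Reg1 averaged 11.98 ± 0.36 in yDucts, 5.65 ± 1.09 in Ducts and 14.25 ± 0.05 in Acini (SD, n = 4 each). It was 4.84-fold lower in yDucts than in Acini (-2.28 ± 0.41, adjusted p = 0.000242) and 387-fold lower in Ducts than in Acini (-8.60 ± 0.41, adjusted p = 2.42e-09). Between the organoids it was 80.0-fold higher in yDucts than in Ducts (6.32 ± 0.41, adjusted p = 1.94e-06), the 6th highest difference of 14991 genes.

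Reg3g encodes a Reg3 protein that kills Gram-positive bacteria in the mouse intestine. Probe set 1448872_at read 9.74, 10.59, 10.24 and 10.13 in yDucts, 3.20, 4.15, 4.05 and 3.99 in Ducts, and 9.48, 10.07, 10.19 and 9.80 in Acini. The yDucts and Acini arrays overlapped, all 8 lay above the 4 Ducts arrays, and 3 of the 4 Ducts arrays were above the floor. Reg3g averaged 10.18 ± 0.35 in yDucts, 3.85 ± 0.44 in Ducts and 9.89 ± 0.32 in Acini (SD, n = 4 each). It was 80.3-fold higher in yDucts than in Ducts (6.33 ± 0.25, adjusted p = 1.62e-08), the 5th highest difference of all genes tested, and 65.7-fold lower in Ducts than in Acini (-6.04 ± 0.25, adjusted p = 5.43e-10). The difference between yDucts and Acini, 0.29 ± 0.25, did not pass (95% interval -0.24 to 0.82, adjusted p = 0.294), and it lay close to the median of all genes in that comparison, 0.24. Its direction depended on the scaling of the arrays: after cyclic loess the difference was -0.78 (adjusted p = 0.00947), where the median of all genes was -0.16, and after quantile normalization it was -0.48 (adjusted p = 0.0871).

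Reg3b encodes the pancreatitis-associated protein, which acinar cells produce in large amounts during acute pancreatitis. Probe set 1448290_at, the brighter of the pair, read 11.95, 13.02, 12.19 and 12.16 in yDucts, 4.98, 6.73, 10.94 and 10.85 in Ducts, and 13.87, 13.90, 13.89 and 13.98 in Acini. Ducts A and B were low and Ducts C and D were high, and even the highest Ducts array was below the lowest of yDucts, as the highest of yDucts was below the lowest of Acini. The second probe set, 1416297_s_at, whose suffix marks probes that may match more than 1 transcript, gave the same order of groups with 11.75, 12.93, 12.10 and 12.10 in yDucts, 5.05, 6.27, 10.14 and 10.22 in Ducts, and 13.05, 13.63, 13.46 and 13.53 in Acini.

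With the brighter probe set, Reg3b averaged 12.33 ± 0.47 in yDucts, 8.38 ± 3.0 in Ducts and 13.91 ± 0.05 in Acini (SD, n = 4 each). It was 46.4-fold lower in Ducts than in Acini (-5.54 ± 1.05, adjusted p = 0.000368). The difference between yDucts and Ducts, 3.96 ± 1.05 or 15.5-fold, was the 20th highest of 14991 genes but missed the threshold (95% interval 1.69 to 6.22, adjusted p = 0.0647). The difference between yDucts and Acini, -1.58 ± 1.05, also missed it (95% interval -3.85 to 0.69, adjusted p = 0.184). The Ducts arrays entered the common estimate of the spread: without Ducts C and D the yDucts against Ducts difference was 6.48 (adjusted p = 7.47e-06), without Ducts A and B it was 1.44 (adjusted p = 0.00263), and in those fits the yDucts against Acini difference had adjusted p = 0.00117 and 2.71e-05. These pairs are the high and the low Reg3b arrays of Ducts themselves. Leaving either pair out removes the spread within Ducts, so small p-values follow from that choice. An exact permutation test on the 8 arrays of either comparison gave p = 0.0286, the smallest it can give, unadjusted. For 1416297_s_at, in a fit of all probe sets, the difference between yDucts and Ducts was 4.30 (adjusted p = 0.0265), that between Ducts and Acini was -5.50 (adjusted p = 0.00014), and that between yDucts and Acini was -1.20 ± 0.92 (adjusted p = 0.257).

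Reg2, Reg3a and Reg3d were low in both kinds of organoid. Reg2 encodes a pancreatic secretory REG protein of the mouse. Its probe set, 1416139_at, read 4.93, 4.98, 5.07 and 5.19 in yDucts, 4.95, 4.50, 4.41 and 4.44 in Ducts, and 14.30, 14.46, 14.43 and 14.38 in Acini. The organoid arrays overlapped through Ducts A alone, and both groups lay far below Acini. Reg2 was 653-fold lower in yDucts than in Acini (-9.35 ± 0.15, adjusted p = 1.52e-14), and -9.82 ± 0.15 was the matching difference for Ducts (adjusted p = 1.05e-14). Between the organoids the difference was 0.47 ± 0.15 (95% interval 0.15 to 0.78, adjusted p = 0.124). It passed without Ducts A (0.59, adjusted p = 0.027), the highest of the Ducts arrays for Reg2, but stayed uncalled under 24 of 27 alternative settings.

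Reg3a encodes a Reg3 lectin of the exocrine pancreas and gut. Probe set 1449495_at read 3.31, 3.97, 3.29 and 3.40 in yDucts, 3.23, 3.34, 3.51 and 3.60 in Ducts, and 11.62, 12.19, 12.35 and 12.05 in Acini. The organoid arrays overlapped and lay just above the floor. Reg3a was 377-fold lower in yDucts than in Acini (-8.56 ± 0.20, adjusted p = 1.11e-12), with a difference of -8.63 ± 0.20 for Ducts (adjusted p = 1e-12). The difference between the organoids was 0.07 ± 0.20 (95% interval -0.35 to 0.50, adjusted p = 0.977).

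Reg3d encodes another Reg3 lectin and sits between Reg3b and Reg3a. Probe set 1424009_at read 4.33, 4.19, 4.17 and 4.47 in yDucts, 3.81, 4.03, 3.98 and 4.20 in Ducts, and 11.75, 12.32, 12.34 and 11.95 in Acini. Ducts D reached into the range of yDucts, and Acini lay far above both. Reg3d was 223-fold lower in yDucts than in Acini (-7.80 ± 0.16, adjusted p = 4.34e-13) and 272-fold lower in Ducts than in Acini (-8.09 ± 0.16, adjusted p = 2.76e-13). The difference between the organoids was 0.29 ± 0.16 (95% interval -0.07 to 0.64, adjusted p = 0.522).

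Reg4, best known from secretory cells of the intestine, was close to the floor throughout. Probe set 1418931_at read 3.19, 3.20, 2.91 and 3.23 in yDucts, 3.05, 2.93, 3.29 and 3.10 in Ducts, and 4.53, 4.30, 4.09 and 4.25 in Acini. It was above the floor on 2 of 4 yDucts arrays, on 1 of 4 Ducts arrays and on 4 of 4 Acini arrays. Reg4 was at least 2.13-fold lower in yDucts than in Acini (-1.16 ± 0.14, adjusted p = 1.06e-05) and at least 2.1-fold lower in Ducts than in Acini (-1.20 ± 0.14, adjusted p = 7.94e-06). No fold was taken between the organoids, both of which averaged below the floor (difference 0.04 ± 0.14, adjusted p = 0.984). The size of the differences from Acini depended on the scaling: after quantile normalization Reg4 stood at -0.74 in yDucts and -0.80 in Ducts, and after cyclic loess at -0.59 and -0.65, both smaller than the folds above, which hold for the values as deposited.

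Counted together, 5 of 7 REG genes were lower and 0 of 7 higher in yDucts than in Acini, where 32.6% of all genes tested were called lower and 43.6% higher. In Ducts against Acini, 7 of 7 were lower and 0 higher, where 33.1% of all genes were lower and 42.7% higher. Both counts of lower genes include Reg4, which passed the filter only through its values in Acini, so that the filter favoured a lower call. With the filter at the 50th percentile Reg4 was not tested, and 4 REG genes were called lower in yDucts and 6 in Ducts. In yDucts against Ducts, 2 of 7 were higher (Reg1 and Reg3g) and 0 lower, where 2.15% of all genes were higher and 0.987% lower. The median difference of the 7 genes was -2.28 in yDucts against Acini, -8.09 in Ducts against Acini and 0.47 in yDucts against Ducts, beside 0.24, 0.20 and 0.00 over all genes tested. These comparisons share arrays: each group entered 2 of the 3. Scaling moved the whole set of genes against Acini. Of the genes called, 57.2% were higher in yDucts than in Acini as deposited, 45.3% after quantile normalization, 42.9% after cyclic loess and 64.8% once array medians were set equal, and the median difference of all genes was 0.24, -0.15, -0.16 and 0.46 under these. For Ducts against Acini the shares were 56.3%, 44.4%, 41.3% and 63.7%. The REG genes called lower numbered 7 in both comparisons after cyclic loess, and stayed at 5 and 7 under the other scalings.

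Reg3d, Reg3a and Reg2, which showed the 3 lowest differences between yDucts and Acini among the REG genes, lie side by side, 5.0 to 37.2 kb from the start of Reg3b. The genes with high levels in yDucts flank them, with Reg3b on one side and Reg1 (55.1 kb) and Reg3g (95.4 kb) next to each other on the other. Of the pair on the minus strand, Reg3d stood at -7.80 and Reg3g at 0.29 in yDucts against Acini.

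**Figure D2:**
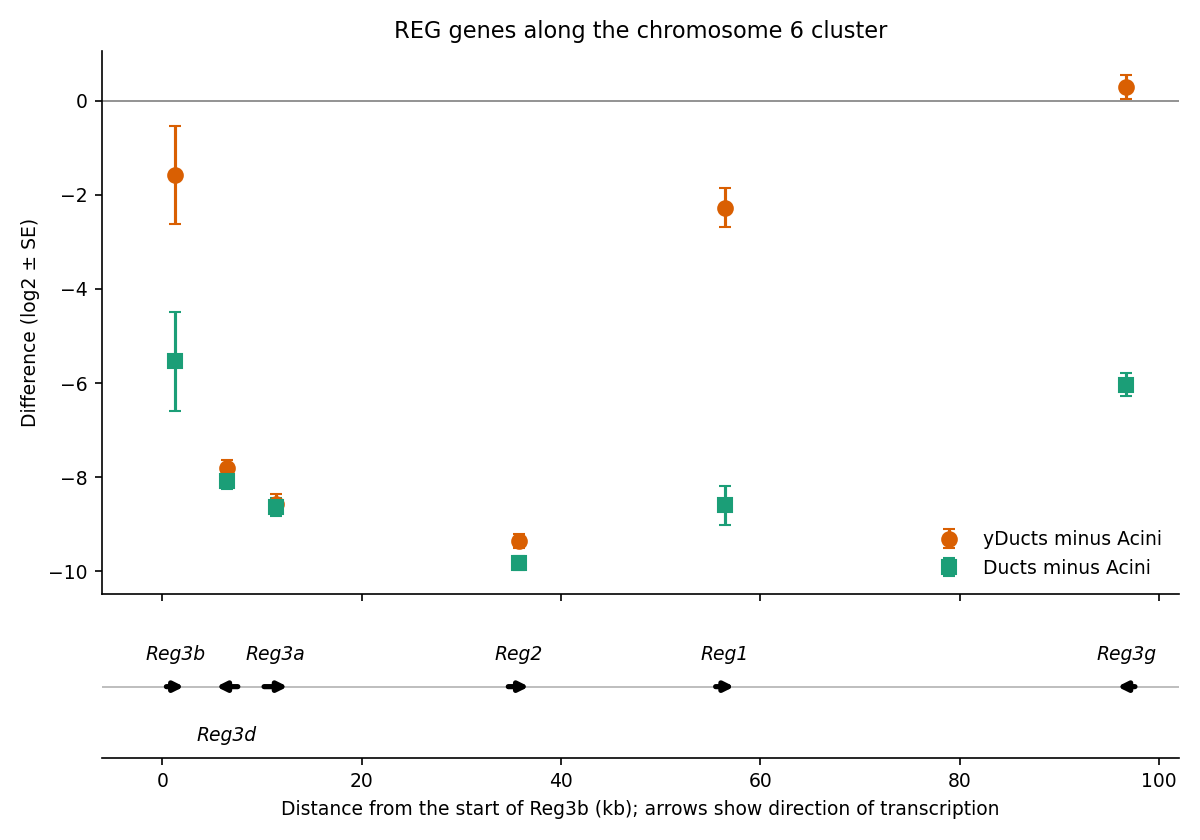
Difference from Acini (log2 ± SE) of the 6 REG genes of the chromosome 6 cluster, for yDucts (circles) and Ducts (squares), by distance from the start of Reg3b in kb; arrows show the genes and their direction of transcription. Reg3b, Reg1 and Reg3g stand at -1.58, -2.28 and 0.29 in yDucts, with Reg3d, Reg3a and Reg2 between -9.35 and -7.80, while in Ducts all 6 lie between -9.82 and -5.54.

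The Ducts arrays did not vary alike for every REG gene. Reg3b ranged from 4.98 to 10.94 over its Ducts arrays, whereas Reg3g ranged from 3.20 to 4.15 and Reg3a from 3.23 to 3.60. Lcn2, which encodes the iron-sequestering antimicrobial protein lipocalin-2, read 13.31, 13.76, 8.09 and 7.36 on Ducts A to D. Cxcl5, a neutrophil-attracting chemokine, read 12.44, 13.11, 8.57 and 8.37. Both were high on the arrays where Reg3b was low. On the yDucts arrays Lcn2 read 12.85, 13.47, 13.06 and 11.48 and Cxcl5 read 11.73, 12.50, 11.86 and 10.79, so that all 3 genes were high together there. The mean of the 8 ductal markers was 10.29, 11.07, 9.20 and 9.10 on Ducts A to D. The gap was widest for Car2 (10.70, 11.78, 6.51 and 6.04) and Cftr (3.57, 6.61, 2.23 and 2.38). It was smaller for the other ductal markers, and Krt7 read 12.69, 13.07, 12.72 and 12.76. The mean of the 9 acinar markers was 3.80, 4.02, 3.88 and 3.65, with 7 of 9 above the floor in Ducts. Cela1 among them read 5.73, 7.13, 5.37 and 4.57. Cd14, of the leukocyte list, read 11.91, 12.50, 8.68 and 8.07 on the same arrays. The part of these marker levels in the spread of Reg3b was not tested.

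**Figure D3:**
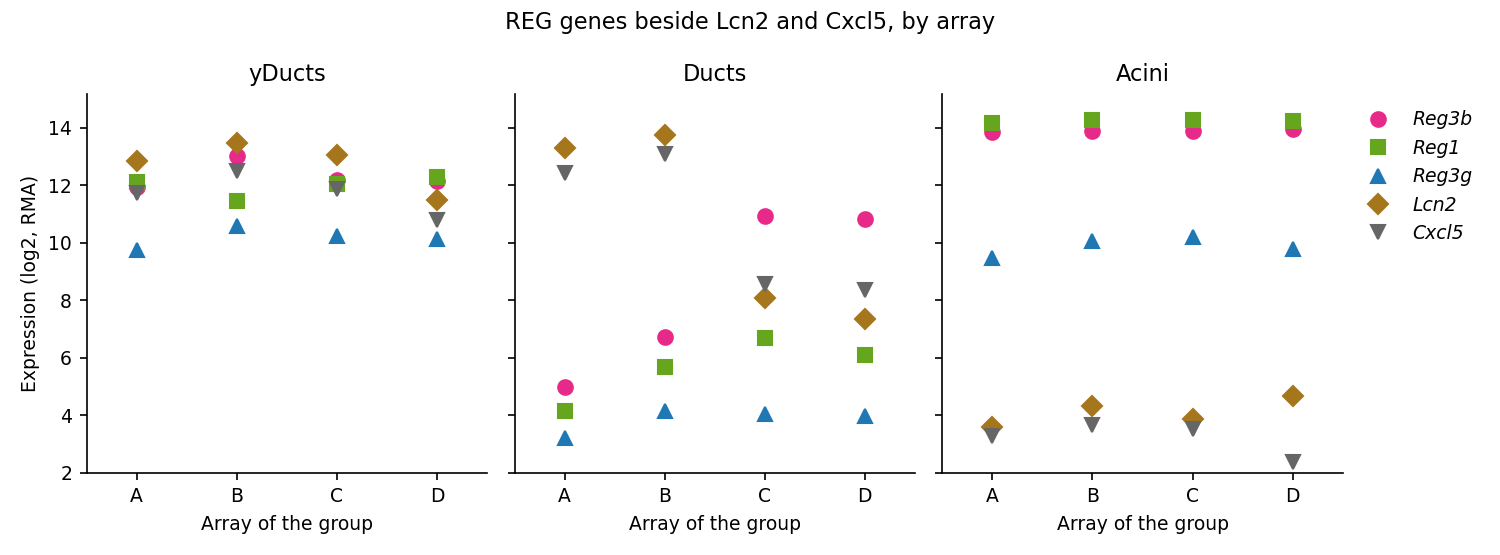
Expression (log2, RMA) of Reg3b, Reg1, Reg3g, Lcn2 and Cxcl5 on arrays A to D of yDucts, Ducts and Acini; each point is 1 array. In Ducts, Reg3b is at 4.98 and 6.73 on A and B and at 10.94 and 10.85 on C and D, while Lcn2 is at 13.31 and 13.76 on A and B and at 8.09 and 7.36 on C and D.

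Across the 12 arrays, the genes closest in pattern to Reg1 were Ptger3, a prostaglandin E2 receptor (Pearson r = 0.983), Nr5a2, a nuclear receptor that maintains acinar gene expression (r = 0.974), and the kinase gene Mark1 (r = 0.967). Ptger3 averaged 7.88 in yDucts, 2.57 in Ducts and 10.58 in Acini, and Nr5a2 averaged 6.97, 3.23 and 9.78 in the same groups. Both stood between Ducts and Acini in yDucts, an order that follows from their choice by likeness to Reg1. The nearest to Reg3g were Maob, a monoamine oxidase (r = 0.973), Cst3, which encodes cystatin C (r = 0.967), and Vim, the intermediate filament vimentin (r = 0.955). Vim read 10.96, 9.51, 10.78 and 10.76 in yDucts, 4.07, 3.41, 3.55 and 3.46 in Ducts, and 8.75, 9.18, 9.10 and 8.05 in Acini. The nearest to Reg3b were Bcat2 (r = 0.914), Tmem109 (r = 0.902) and Reg1 itself (r = 0.896).

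The nearest to Reg2 were the zinc transporter gene Slc39a5, the elastase gene Cela3b and Cpb1. Those nearest to Reg3a were Cuzd1, Serpini2 and Klk1b5, and those nearest to Reg3d were Slc38a5, Klk1b24 and Pnliprp1 (r = 0.999 for all 9). For Reg4 they were Igfbp5, Foxl2 and Fcrls (r = 0.988, 0.988 and 0.987). These correlations describe 12 arrays in 3 groups and mostly follow the group means. With the group means taken out, Reg3b went most closely with Slc39a8, a metal ion transporter gene (r = 0.989), which read 5.89, 6.59, 6.11 and 6.36 in yDucts, 6.15, 6.99, 9.98 and 9.97 in Ducts, and 6.88, 7.07, 7.39 and 7.24 in Acini. Reg1 and Reg3b then had r = 0.806 with each other, and Reg1 and Reg3g r = 0.462. Reg3a and Reg3g had r = 0.761, while Reg2 had r = -0.738 with Reg1 and -0.743 with Reg3b. Reg1 and Reg3b both spread most among the Ducts arrays. Of the yDucts arrays, B was the lowest for Reg1 (11.46) and the highest for Reg3b (13.02).

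**Figure D4:**
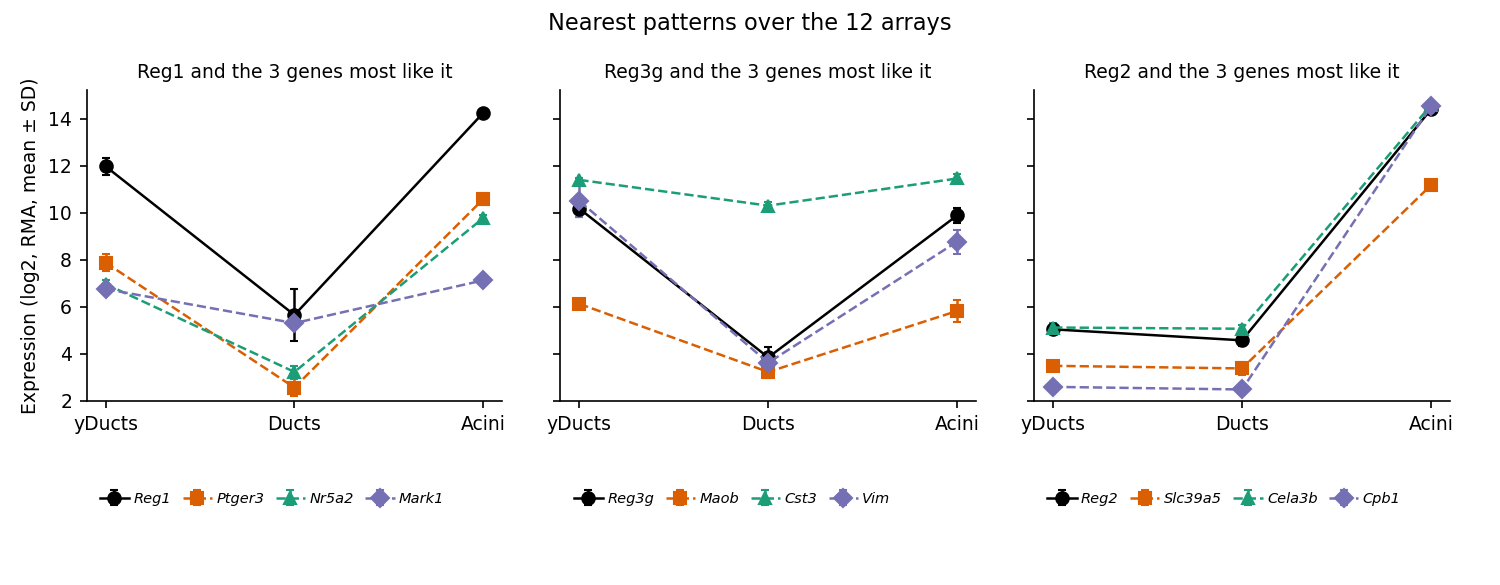
Mean expression (log2, RMA, ± SD over 4 arrays) in yDucts, Ducts and Acini of Reg1, Reg3g and Reg2 (solid black), each with the 3 genes of highest Pearson correlation over 12 arrays (dashed); lines join the means of 1 gene. Reg1 and Reg3g have their low point in Ducts (5.65 and 3.85), whereas Reg2 is low in both yDucts (5.04) and Ducts (4.58).

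Receptors linked to REG proteins or to the gastrin in the medium were measured for 5 of 5 genes listed, and in both comparisons with Acini 2 were higher and 3 lower, with none called between the organoids. Among all genes tested, 43.6% were higher and 32.6% lower in yDucts against Acini, and 42.7% and 33.1% in Ducts against Acini. In yDucts against Ducts these shares were 2.15% and 0.987%. Extl3, an exostosin-like glycosyltransferase proposed as a REG receptor, averaged 7.74 in yDucts, 7.58 in Ducts and 9.69 in Acini. It was 3.86-fold lower in yDucts than in Acini (-1.95 ± 0.15, adjusted p = 1.51e-07) and 4.29-fold lower in Ducts than in Acini (-2.10 ± 0.15, adjusted p = 8.02e-08). Cckar, the cholecystokinin receptor of acinar cells, was at least 296-fold lower in yDucts than in Acini (adjusted p = 1.24e-14) and at least 293-fold lower in Ducts than in Acini (adjusted p = 1.31e-14). Cd44, a hyaluronan receptor, was 88.8-fold higher in yDucts than in Acini and 51.0-fold higher in Ducts than in Acini (adjusted p = 9.05e-09 and 2.84e-08). Egfr, the EGF receptor, was 16.6-fold and 12.7-fold higher in yDucts and in Ducts than in Acini (adjusted p = 6.32e-07 and 1.54e-06). Its 6 tested probe sets disagreed: fitted one by one, 2 were called higher and 3 lower in yDucts than in Acini, with the same counts in Ducts against Acini.

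The IL-22, IL-6 and gp130 pathway, which acts through STAT3 and induces Reg3 genes in epithelia, had 22 genes tested. In yDucts against Acini 8 were higher and 7 lower (median 0.28, beside 0.24 for all genes), where 43.6% and 32.6% of all genes were called. In Ducts against Acini 5 were higher and 6 lower (median -0.13), where 42.7% and 33.1% of all genes were called. In yDucts against Ducts 2 were higher and 1 lower, beside 2.15% and 0.987% of all genes. The counts against Acini moved with scaling, to 4 higher and 8 lower in yDucts after quantile normalization and 2 higher and 9 lower after cyclic loess. Socs3, a feedback inhibitor that STAT3 induces, read 8.81, 9.08, 8.80 and 8.72 in yDucts, 8.05, 7.89, 7.89 and 7.88 in Ducts, and 10.77, 10.37, 10.40 and 10.21 in Acini. Its groups did not overlap, with yDucts in the middle. Socs3 was 1.90-fold higher in yDucts than in Ducts (0.93 ± 0.15, adjusted p = 0.00391) and 3-fold lower in yDucts than in Acini (adjusted p = 8.58e-07).

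Il6, the cytokine interleukin-6, was at least 13.1-fold lower in yDucts than in Acini (adjusted p = 1.18e-08) and at least 13.0-fold lower in Ducts than in Acini (adjusted p = 1.29e-08). Il6ra, which encodes its receptor, was 8.46-fold lower in yDucts and 9.85-fold lower in Ducts than in Acini (adjusted p = 2.84e-08 and 1.55e-08). These folds are those of 1 of its 2 tested probe sets. The other differed from Acini by -0.51 in yDucts and by -0.46 in Ducts, and only 1 of the 2 was called in Ducts against Acini. Osmr, the oncostatin M receptor, was 5.55-fold higher in yDucts than in Acini (2.47 ± 0.63, adjusted p = 0.00315), but after cyclic loess the difference was 1.41 (adjusted p = 0.0696). On Ducts A to D it read 9.76, 8.80, 6.70 and 6.49, high where Reg3b was low.

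Of 17 genes of IL-17, Toll-like receptor and NF-kB signalling, yDucts had 5 higher and 3 lower than Acini, and Ducts had 4 higher and 3 lower. Over all genes tested the shares were 43.6% higher and 32.6% lower in yDucts, and 42.7% and 33.1% in Ducts. In yDucts against Ducts they were 2.15% and 0.987%. After either quantile normalization or cyclic loess both comparisons had 3 higher and 8 lower. Tlr3, a sensor of double-stranded RNA, was 6.88-fold higher in yDucts than in Acini and 12.6-fold higher in Ducts than in Acini (adjusted p = 8.5e-08 and 8.14e-09), and 0.87 ± 0.20 lower in yDucts than in Ducts (adjusted p = 0.033), the only one of the 17 called between the organoids. That call was lost without Ducts A, B or C and without any single yDucts array, at adjusted p between 0.0517 and 0.0869. Of the 2 tested Tlr3 probe sets, each fitted on its own, 1 was called between the organoids. Tlr4, the lipopolysaccharide receptor, was at least 9.51-fold higher in yDucts and at least 5.68-fold higher in Ducts than in Acini (adjusted p = 2.65e-06 and 2.08e-05). These folds are those of 1 of its 3 tested probe sets. Over the 3, all called higher, differences from Acini ran from 1.69 to 3.61 in yDucts and from 0.88 to 2.86 in Ducts. Relb, an NF-kB subunit, was 5.74-fold and 3.54-fold higher in yDucts and in Ducts than in Acini (adjusted p = 5.47e-07 and 9.36e-06). Il17re, a subunit of the IL-17C receptor, was 2.72-fold higher in Ducts than in Acini (adjusted p = 0.000771). In yDucts against Acini it was 1.63-fold higher (0.71 ± 0.30, adjusted p = 0.047), but -0.19 after quantile normalization and -0.38 after cyclic loess, and of its 3 probe sets 1 was called higher and 1 lower. The call was also lost without any single yDucts array, without Acini B, C or D and without Ducts C or D, at adjusted p between 0.0518 and 0.125. In Ducts against Acini it was lost after quantile normalization (0.54, adjusted p = 0.155) and cyclic loess (0.36, adjusted p = 0.366).

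Other epithelial antimicrobial and acute phase genes (24 tested) had 8 higher and 11 lower in yDucts against Acini (43.6% and 32.6% of all genes). They had 5 and 10 in Ducts against Acini (42.7% and 33.1% of all genes), and 1 and 1 in yDucts against Ducts (2.15% and 0.987%). The excess of lower over higher genes in yDucts against Acini depended on the scaling, with 8 higher and 8 lower after quantile normalization, 8 and 7 after cyclic loess, and 10 and 8 with array medians set equal. In Ducts against Acini the counts were 5 and 7, 5 and 7, and 7 and 8. Wfdc2, a secreted protease-inhibitor-like protein, was higher in yDucts than in Acini by 6.99 ± 0.24 (log2, adjusted p = 8.31e-11) and differed by -0.07 ± 0.24 between yDucts and Ducts. Lcn2 was 389-fold higher in yDucts than in Acini (8.60 ± 1.21, adjusted p = 3.12e-05), and Cxcl5 at least 256-fold (adjusted p = 3.13e-06). Pla2g1b, the pancreatic phospholipase A2, which is also on the list of acinar secretory proteins, was 641-fold lower in yDucts and 646-fold lower in Ducts than in Acini (adjusted p = 3.76e-15 and 4.02e-15). Its 3 tested probe sets, all called lower, differed from Acini by -10.74 to -2.05 in yDucts and by -10.69 to -1.94 in Ducts.

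Among 23 other lectins tested, 20 were called in yDucts against Acini (8 higher, 12 lower), 19 in Ducts against Acini (6 higher, 13 lower), and 1 was higher in yDucts than in Ducts. For all genes tested, 43.6% were higher and 32.6% lower in yDucts against Acini, and 42.7% and 33.1% in Ducts against Acini. Between the organoids 2.15% of all genes were higher in yDucts. Zg16, a lectin of the zymogen granule membrane, read 4.38, 4.27, 4.31 and 4.47 in yDucts, 4.14, 3.98, 4.65 and 4.12 in Ducts, and 14.28, 14.19, 14.17 and 14.30 in Acini, so that it was low in both organoid groups, as Reg2 was. The galectin genes Lgals3 and Lgals4 went the other way: Lgals3 was 43.0-fold and 42.6-fold higher in yDucts and in Ducts than in Acini (adjusted p = 7.31e-09 and 7.43e-09), and Lgals4 was 63.1-fold and 107-fold higher (adjusted p = 2.06e-05 and 7.37e-06). Sftpd, a collectin of lung and other epithelia, was 29.7-fold higher in yDucts and 30.6-fold higher in Ducts than in Acini (adjusted p = 0.000164 and 0.000155).

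Of 18 genes of acinar injury and metaplasia, 9 were higher and 4 lower in yDucts against Acini, 7 and 4 in Ducts against Acini, and none was called between the organoids. The shares of all genes called higher and lower were 43.6% and 32.6% in yDucts against Acini, and 42.7% and 33.1% in Ducts against Acini. In yDucts against Ducts they were 2.15% and 0.987%. Krt7, a duct keratin, was 77.6-fold and 138-fold higher in yDucts and in Ducts than in Acini (adjusted p = 1.62e-10 and 4.15e-11). Onecut2, a transcription factor, and Anxa3, an annexin, were both 47.7-fold higher in yDucts than in Acini (adjusted p = 3.91e-10 and 2.14e-11). Tff2, a trefoil peptide, was lower in yDucts and in Ducts than in Acini (-6.65 ± 0.55 and -7.11 ± 0.55, adjusted p = 3.16e-07 and 1.78e-07).

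Acinar secretory proteins are the enzymes and cofactors released alongside REG proteins. All 24 tested were lower in yDucts than in Acini, at a median of -9.99, and 23 of 24 were lower in Ducts than in Acini, at a median of -10.10. The shares of all genes called lower were 32.6% and 33.1% in these comparisons. Among the 24, Cpb1, Pnliprp1, Cela2a and Rnase1 averaged under the floor in both organoid groups and passed the filter only through Acini. For such genes the filter favoured a lower call. Between the organoids 1 was called higher in yDucts, where 2.15% of all genes were called higher. Cpb1, Pnliprp1 (a lipase-related protein), Cela2a (an elastase) and Rnase1 (a ribonuclease) were at least 2580-fold, 2200-fold, 2320-fold and 2420-fold lower in yDucts than in Acini, with adjusted p between 1.28e-15 and 3.11e-15.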

How the data were processed

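Gene expression was measured on 12 single-colour Affymetrix arrays, 4 each of yDucts, Ducts and Acini, grouped by the sample titles. The deposited values were on the log2 scale and had been made by the authors with RMA, which corrects background, normalizes between arrays and summarises probes into probe sets; the sources used here give neither its version nor whether all arrays were processed together. No scanner files were used, so depth is unknown and the number of arrays limits the precision. No columns were identical.

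Control probe sets (64) and probe sets with no (9211) or several (932) gene symbols were left out of the gene-level fit. A gene was represented by the probe set of highest mean over all arrays and was tested where that lay above the floor (the 30th percentile of an array) in 4 arrays or more. The group means of all 12 arrays were fitted with limma 3.58.1 in R 4.3.3 (9 residual and 3.72 prior degrees of freedom), two-sided, with Benjamini-Hochberg adjustment. Scripts were tested on simulated data. All REG genes are named, with up to 4 genes of each of 7 lists (the largest absolute difference from Acini) and the 3 genes of highest Pearson correlation. The members and lists were chosen with earlier results of these data known, and the promoter motifs after the values were seen. Gene positions and promoters came from RefSeq tables on GRCm38.p6, in which all 8 REG probe sets were matched by gene identifier; promoters were compared with Python 3.11.15 and Biopython 1.88.

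Alternatives were quantile, cyclic loess and median scaling, other filters and probe-set rules, array weights, a trended robust variance, fits of 2 groups, a replicate block, leaving out arrays, and exact permutation tests of single genes. Alternative scalings and fits on fewer arrays used the same probe sets and genes.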

Additional observations from a re-analysis of the deposited data

Results flagged for a closer look

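Of the 21 combinations of a REG gene and a group of 4 arrays, 4 had 1 array set apart from the other 3 by more than Dixon's 95% critical value, which chance alone exceeds in about 1 of 20 groups. Reg3a read 3.97 on yDucts B, where the other yDucts arrays read 3.29 to 3.40. Reg4 read 2.91 on yDucts C, against 3.19 to 3.23 on the others, all near the floor. Reg2 read 4.95 on Ducts A, against 4.41 to 4.50. Reg3g read 3.20 on Ducts A, the array where Reg1 and Reg3b were also at their lowest in Ducts, against 3.99 to 4.15. Reg3b on the Ducts arrays was not among these 4, since it fell into 2 low and 2 high values.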

How the results depend on the processing

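Over 27 alternative settings, 564 values of single REG genes were recomputed. Of these, 548 kept their side of the threshold, 15 passed it in the same direction only under the alternative, and 0 lost it. The 548 include values that changed sign without passing under either setting. Among them were Reg3g in yDucts against Acini after quantile normalization (-0.48), and Reg3a and Reg4 in yDucts against Ducts, which both reached -0.13. The remaining value, the only one that both changed sign and passed, was Reg3g in yDucts against Acini after cyclic loess (-0.78, adjusted p = 0.00947). The cause was not tested. Reg3b in yDucts against Ducts had adjusted p from 7.47e-06 to 0.152. The lowest came without Ducts C and D, a pair that follows the Reg3b values themselves. It passed with the mean of its probe sets (4.13, adjusted p = 0.0398), with array weights (1.80, adjusted p = 0.0203), without Ducts C (4.81, adjusted p = 0.0273) and without Ducts D (4.78, adjusted p = 0.0283). Reg3b in yDucts against Acini passed after cyclic loess (-2.58, adjusted p = 0.0446) and in a fit of those 2 groups alone (adjusted p = 8.06e-05), which leaves out the spread of Ducts. Reg2 in yDucts against Ducts passed with array weights (0.60, adjusted p = 0.000171) and, with Ducts A and B left out, at 0.62 (adjusted p = 0.0189). The REG genes called higher in yDucts than in Ducts numbered 4 with array weights and 4 without Ducts A and B, against 2 in the report. Ducts A and B are the arrays with low Reg3b. Il17re in yDucts against Acini turned to -0.19 and -0.38 after quantile normalization and cyclic loess, and Sftpd in yDucts against Ducts to 1.75 without Ducts A and B (adjusted p = 0.0472). For the 28 named genes of the lists, 2208 of 2268 values kept their side of the threshold, 25 lost it and 32 passed it. The other 3 changed sign with a pass under at least 1 of the settings compared. Of 11424, 11355 and 470 genes called in yDucts against Acini, Ducts against Acini and yDucts against Ducts, the last count was 6183 with array weights, 2180 without Ducts A and B and 229 to 838 with any 1 array left out. With each probe set tested on its own the counts were 23893, 23863 and 779. The sources do not say whether the replicate letters pair the arrays. Deviations of same-lettered yDucts and Ducts arrays correlated at 0.134, -0.324, -0.35 and 0.11, which cannot settle it. With the letter as a replicate block 11266, 11178 and 388 genes were called, and the REG counts stayed at 5, 7 and 2. Reg4 in yDucts and in Ducts against Acini, -1.16 and -1.20 in the report, was -0.59 and -0.65 after cyclic loess, with the same calls, and the cause was not tested.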

Other observations

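Genes of the 7 lists that were called between the organoid groups but fell outside the naming rule are given here. They were chosen after their values were seen and were not recomputed under the alternatives. Over all genes tested, 2.15% were higher and 0.987% lower in yDucts than in Ducts. Hp, which encodes the acute phase protein haptoglobin, was the antimicrobial and acute phase gene called higher in yDucts: it averaged 8.95 in yDucts and 4.16 in Ducts (difference 4.79 ± 0.34, adjusted p = 3.9e-06). S100a9, a calprotectin subunit, was lower in yDucts, at 3.63, than in Ducts, at 6.59 (-2.96 ± 0.50, adjusted p = 0.00531). Lgals1, which encodes galectin-1, was the other lectin called, at 12.13 in yDucts and 8.34 in Ducts (3.79 ± 0.66, adjusted p = 0.00678). In the IL-6 family, the cytokine gene Clcf1 was higher in yDucts (7.83, against 6.43 in Ducts, adjusted p = 0.0431), and Pim1, a kinase gene, was lower (6.92, against 7.92 in Ducts, adjusted p = 0.0231). Of the acinar secretory genes, Amy1, an amylase, averaged 3.35 in yDucts and 2.47 in Ducts, under the floor there (0.89 ± 0.15, adjusted p = 0.00459).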
